A study of Homo sapiens with 15 samples.

Results

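The proteasome is the protease complex that degrades ubiquitin-tagged proteins in the cytosol and nucleus. Its core particle is a barrel of alpha rings around beta rings, and 3 of the constitutive beta subunits, PSMB5, PSMB6 and PSMB7, carry the catalytic sites. A regulatory cap binds the barrel: its ATPases unfold the substrate, and its non-ATPase subunits hold ubiquitin receptors and a deubiquitinase. Cells can also place other activators on the barrel, and interferon exchanges catalytic subunits for inducible ones such as PSMB10. USP7, the gene altered in these cells, encodes a deubiquitinase, an enzyme that removes ubiquitin from proteins before they reach the proteasome.

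The members were taken by symbol: every gene named PSMA to PSMG followed by a number, with PSMB8 and PSMB9 set aside by the rule. There were 44 such genes among the 22706 genes of the table. They comprised 15 core genes (7 alpha and 8 beta), 17 cap genes (6 ATPases and 11 non-ATPases) and 12 others (7 assembly chaperones and 5 activators or inhibitors). All 44 passed the filter on low values, a normalized count of at least 10 in at least 3 libraries, as did 15134 genes in all. PSMA8 and PSMB11, which also match by name, were not analysed here.

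RNA-seq libraries were made from DLD1 cells, an established human line from a colorectal cancer, in 5 groups of 3. The KO group is the USP7-KO line carrying a doxycycline-inducible GFP-USP7 (pTREG-BI-USP7) and the Tet-ON plasmid pEF1α-Tet3G, selected with G418 and given no doxycycline. The day 1, day 3 and day 9 groups are that same KO line given doxycycline at 1 µg/ml for 1, 3 or 9 days, and the WT group is the parental line without treatment, which carries neither plasmid. The labels do not say whether the KO line is 1 clone, and doxycycline-treated WT cells were not analysed here, so doxycycline itself and USP7 induction cannot be told apart. Nor can loss of USP7 be told apart, in KO against WT, from the plasmids, the G418 selection and the history of the line.

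Values are DESeq2-normalized counts, that is, reads per gene divided by a size factor of the library. They are not scaled by gene length, so levels are compared between groups for each gene and not between genes. Library totals ran from 14741094 to 15347043 normalized counts, with 20857 to 21314 genes above 0. Day 1 replicate 1 stood apart from its group: its mean squared differences from replicates 2 and 3 were 14.04 and 10.02 times counting noise, against 1.53 between replicates 2 and 3. Day 9 replicate 1 did so to a lesser degree (5.41 and 4.45, against 2.17 between day 9 replicates 2 and 3). Replicates are described as biological, without saying that they were separate cultures, so each p-value reflects the spread among these samples alone, which may be technical. Column names carry 1 project code for the 9 KO, day 1 and WT libraries and another for the 6 day 3 and day 9 libraries. Project code and group therefore cannot be told apart in day 3 or day 9 against KO, or in day 9 against WT, whereas KO against WT, day 1 against KO and day 9 against day 3 each lie within 1 code. In bulk RNA, fewer cells of a kind and less RNA per cell cannot be told apart. Of the colorectal epithelium markers, 8 of 9 listed were in the table and summed to 150508 to 156944 in KO and 97643 to 100087 in WT, while KRT20 was at 0 in all 3 KO libraries. Leukocyte markers (2 of 6 listed in the table, CD14 and CD68) summed to 37.9 to 48.8 in KO and 17 to 25.9 in WT, and the part of either list in the results was not tested.

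USP7 itself had normalized counts of 1403, 1370 and 1395 in KO, 8635, 7888 and 8193 at day 1, 7819, 7491 and 8174 at day 3, 4945, 4402 and 5017 at day 9, and 3421, 3373 and 3382 in WT. The groups did not overlap except for day 1 with day 3, and reads of the endogenous gene and the transgene were not separated. USP7 transcripts were thus lowest in KO, highest at days 1 and 3, and above WT at day 9.

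Promoter windows were taken from RefSeq (build GRCh38.p14), from 250 bases before to 50 bases after each annotated start, and 38 of the 44 genes had at least 1 window. Windows are shown for some of the genes with large changes described below, chosen after their values and motif matches were known and because each holds a match. The first are PSMB10 (chr16:67936801-67937100, minus strand), PSME1 (chr14:24135944-24136243, plus strand) and PSME2 (chr14:24146561-24146860, minus strand), the interferon-inducible catalytic subunit and the subunits of an interferon-inducible activator ring. The capitals mark the core of the interferon-stimulated response element, the letters GAAA, NN and GAAA in a row on either strand, to which interferon regulatory factors bind.
PSMB10: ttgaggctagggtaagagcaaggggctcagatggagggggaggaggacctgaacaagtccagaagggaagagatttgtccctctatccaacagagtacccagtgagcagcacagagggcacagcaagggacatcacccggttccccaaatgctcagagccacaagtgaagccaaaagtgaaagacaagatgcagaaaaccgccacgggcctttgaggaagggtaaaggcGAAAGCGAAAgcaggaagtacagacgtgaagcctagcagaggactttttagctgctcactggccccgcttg
PSME1: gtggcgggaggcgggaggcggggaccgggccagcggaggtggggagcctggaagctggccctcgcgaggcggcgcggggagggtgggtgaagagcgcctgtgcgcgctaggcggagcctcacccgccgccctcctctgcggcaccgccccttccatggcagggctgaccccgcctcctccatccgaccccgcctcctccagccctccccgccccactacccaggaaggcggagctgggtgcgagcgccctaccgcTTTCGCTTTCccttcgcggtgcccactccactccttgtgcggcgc
PSME2: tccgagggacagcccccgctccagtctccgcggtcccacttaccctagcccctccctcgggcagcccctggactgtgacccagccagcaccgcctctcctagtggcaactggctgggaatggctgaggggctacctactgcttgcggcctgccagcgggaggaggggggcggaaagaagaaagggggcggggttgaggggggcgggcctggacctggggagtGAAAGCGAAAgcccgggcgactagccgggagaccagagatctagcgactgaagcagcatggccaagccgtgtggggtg

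In PSMB10 and PSME2 the match reads GAAAGCGAAA and begins 21 and 28 bases before the annotated start, while in PSME1 it reads TTTCGCTTTC on the strand shown and begins at base 6 after the start. Both interferon motifs (this one and TTCNNNGAA) were chosen after the expression values had been seen. The interferon-stimulated element core was found in 6 of the 38 genes (15.8%): PSMA4, in 1 of its 3 windows, PSMB4, PSMB10, PSME1, PSME2 and PSMG4. Over all 27305 genes with windows of this length the share was 4.4%, and no window of the 16 cap genes held it. TTCNNNGAA, the gamma-interferon activation site, was in 15.8% of these genes and 9.4% of all genes, and in none of the windows of PSMB10, PSME1 and PSME2. Not every holder of the interferon-stimulated element core fell in KO against WT. PSMB4 rose (log2 difference 0.25), and PSMA4 and PSMG4 did not pass the threshold. PSMC5 and PSMD5, which fell, hold no such core.

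The other pair shown is PSMD1 (chr2:231056617-231056916, plus strand) and PSMD3 (chr17:39980557-39980856, plus strand), cap subunits that rose in KO. They were chosen because each holds a match: PSMD8 and PSMC1, the other cap genes among the 4 largest rises, hold none. PSMB3, PSMC4, PSMD12 and PSME4, which also rose, hold 1 each. Of the genes that fell, PSME1, PSME2, PSMD5 and PSMC5 (in 1 of its windows) hold 1 each, and PSMB10 holds none. Here the capitals mark the antioxidant response element core, TGACNNNGC on either strand, a sequence bound by NFE2L1 and NFE2L2 with small MAF proteins.
PSMD1: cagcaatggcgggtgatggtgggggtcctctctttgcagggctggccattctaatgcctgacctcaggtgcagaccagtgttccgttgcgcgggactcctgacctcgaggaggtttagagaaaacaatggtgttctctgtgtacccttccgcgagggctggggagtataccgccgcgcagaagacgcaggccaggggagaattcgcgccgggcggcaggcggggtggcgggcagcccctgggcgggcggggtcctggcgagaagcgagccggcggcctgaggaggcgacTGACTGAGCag
PSMD3: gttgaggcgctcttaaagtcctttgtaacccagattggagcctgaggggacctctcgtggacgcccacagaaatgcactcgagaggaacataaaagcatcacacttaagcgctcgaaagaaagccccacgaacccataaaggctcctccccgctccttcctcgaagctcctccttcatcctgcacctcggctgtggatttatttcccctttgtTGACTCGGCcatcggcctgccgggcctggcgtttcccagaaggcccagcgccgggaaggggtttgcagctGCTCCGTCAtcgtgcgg

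PSMD1 holds 1 match, TGACTGAGC, beginning 40 bases after the start. PSMD3 holds a pair, TGACTCGGC beginning 37 bases before and GCTCCGTCA beginning 34 bases after it. TGACNNNGC was in 14 of 38 genes (36.8%) against 16.1% of all genes, with 2 of 11 core, 5 of 16 cap and 7 of 11 other genes. The CCAAT box (CCAAT, either strand) was in 47.4% of these genes and 39.7% of all genes, and the E-box CACGTG in 7.9% and 8.8%. The 5 motifs were searched separately, with overlaps between them allowed, and these matches describe letters in the windows.

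In KO cells most genes of the core and cap had higher RNA levels than in WT cells, by 7.0% for PSMA7 up to 32.1% for PSMD1 among those past the threshold. Adjusted p was under 0.05 for 33 of the 44 genes, 28 higher and 5 lower, against 49.7% of all tested genes called (24.8% higher and 24.8% lower). Rises covered 11 of 15 core genes and 14 of 17 cap genes. None of the 7 assembly chaperones with a PSM symbol rose. POMP, a core maturation factor without such a symbol, did (log2 difference 0.19, adjusted p = 0.0174). Members that fell included the inducible subunit PSMB10 and the activator subunits PSME1 and PSME2. The differences were no larger than those of a typical gene: the median absolute log2 difference was 0.19 over the 44 genes and 0.24 over all genes tested. The share called also depends on precision. Most core and cap genes had standard errors (SE) of 0.04 to 0.07, below the median of 0.087 over all genes tested. The fit was limma on log2(normalized count + 1) with Benjamini-Hochberg adjustment over all genes, and every fold change below is on that scale. Leaving out 1 library at a time gave 28 to 31 genes past the threshold.

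**Figure D1:**
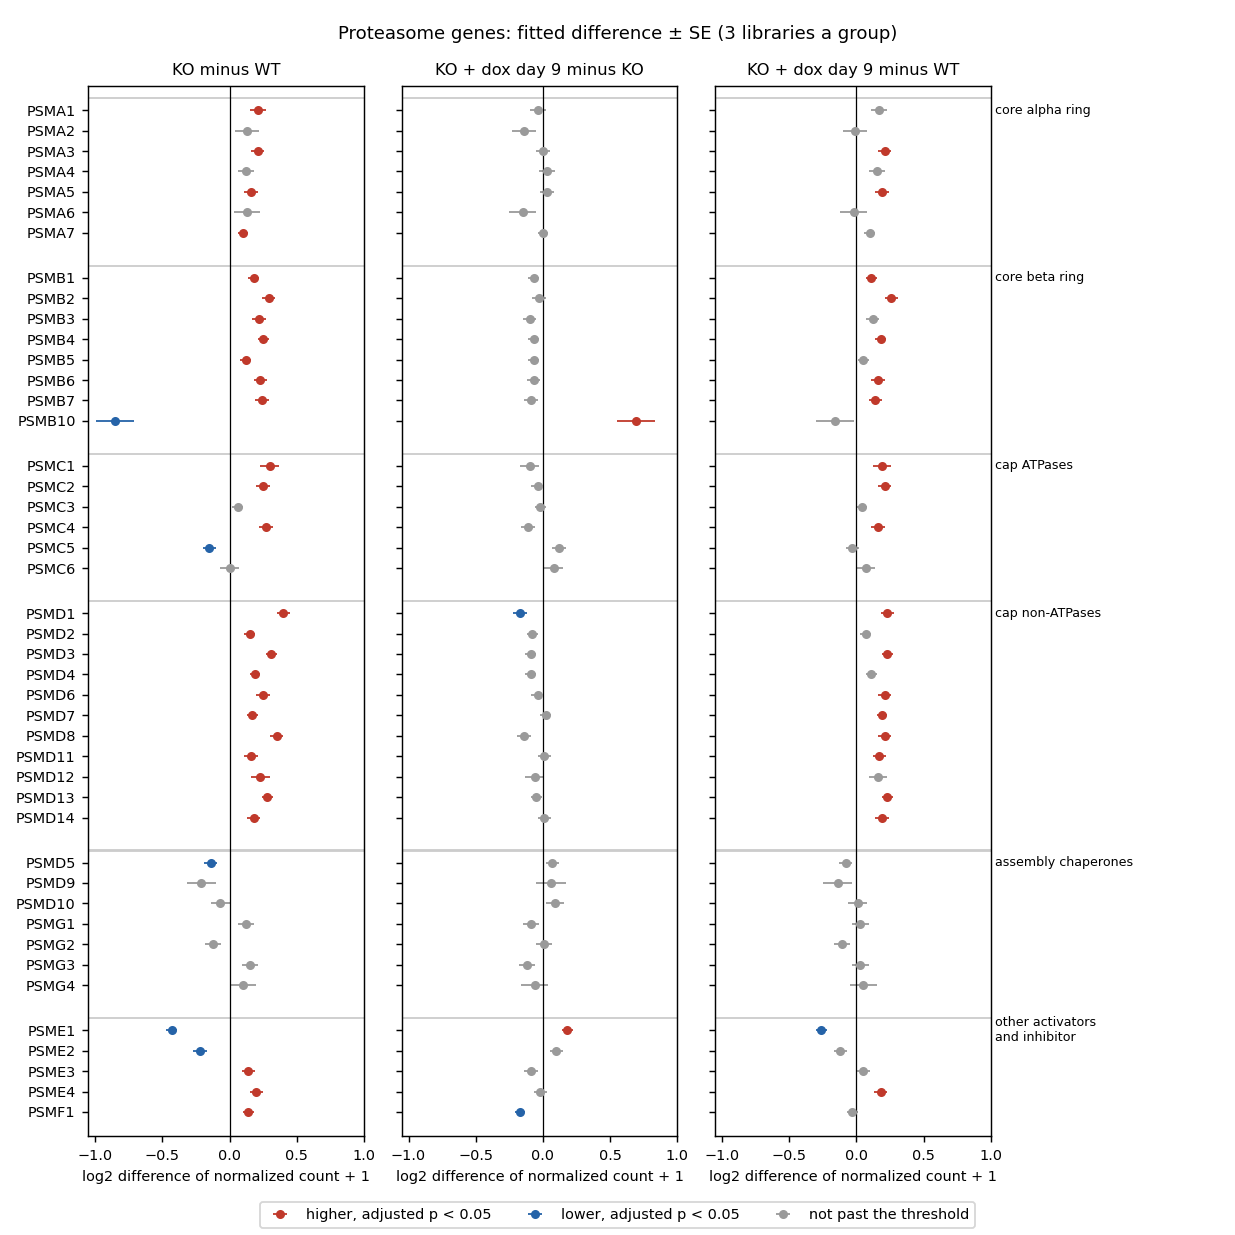
Fitted log2 difference of normalized count + 1 (x axis) for each of the 44 proteasome genes (y axis, by class) in KO minus WT, day 9 minus KO and day 9 minus WT, 3 libraries a group. Points are estimates and bars 1 SE, with red for higher, blue for lower and grey for not past the threshold. In KO minus WT the core and cap points sit mostly right of 0 and PSMB10 far to the left at -0.85, while in day 9 minus KO most points lie near 0 and PSMB10 is at 0.69.

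Among cap non-ATPases with a PSM symbol, which are scaffold, receptor and lid subunits, all 11 rose in KO, with log2 differences of 0.15 to 0.40. Their median was 0.23, and 24.8% of all tested genes were called higher. SEM1 and ADRM1, cap subunits without such a symbol, did not pass (log2 differences -0.01 and 0.28, adjusted p = 0.937 and 0.153). PSMD1, the large scaffold of the cap base, had normalized counts of 5081, 4764 and 4690 in KO and 3683, 3656 and 3660 in WT. Every KO library lay above every WT library, and the log2 difference was 0.40 ± 0.05 (SE, adjusted p = 7.66e-07), a 1.32-fold level. PSMD8, a lid subunit, had 3017, 2955 and 2965 in KO and 2354, 2231 and 2439 in WT (log2 difference 0.35 ± 0.05, adjusted p = 1.55e-05). PSMD3, another lid subunit, had 5056, 5003 and 4885 in KO and 3973, 3988 and 4060 in WT (0.31 ± 0.04, adjusted p = 3.24e-06). For both lid genes the groups were well apart, with no overlap. Smaller rises were seen for PSMD4, a ubiquitin receptor (2173 ± 54.3 in KO and 1902 ± 64.4 in WT, SD, n = 3 each, log2 difference 0.19), and for PSMD14, the deubiquitinase of the lid (2703 ± 109 in KO and 2386 ± 20.7 in WT, log2 difference 0.18). PSMD2, the scaffold that docks ubiquitin shuttles, had the smallest rise of the class, 4187 ± 75.7 in KO and 3766 ± 44.1 in WT (0.15 ± 0.04).

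The 6 ATPases of the cap, which form its unfolding ring, did not move together. PSMC1, PSMC2 and PSMC4 rose, PSMC5 fell, and PSMC3 and PSMC6 did not pass the test. PSMC1 had 1209, 1193 and 1252 normalized counts in KO and 975, 983 and 1013 in WT (log2 difference 0.30 ± 0.07, adjusted p = 0.000908). PSMC2 and PSMC4 had log2 differences of 0.25 ± 0.05 and 0.27 ± 0.05. PSMC5 had 2569, 2663 and 2540 in KO and 2882, 2803 and 2951 in WT (log2 difference -0.15 ± 0.05, adjusted p = 0.0138). The KO libraries of PSMC5 lay below those of WT, but its call was lost without WT replicate 3 (adjusted p = 0.0598) or KO replicate 3 (0.0547). PSMC6 averaged 2014 ± 115 in KO and 2015 ± 52.2 in WT, and PSMC3 2608 ± 68.5 in KO and 2500 ± 45.5 in WT. Both overlapped between the groups.

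Some of these genes share exons with a gene on the opposite strand in GENCODE 29, and whether HTSeq counted by strand is not stated in the labels. NRDE2 overlaps 75.8% of the exon length of PSMC1 and averaged 265.2 ± 22.5 normalized counts in KO and 627.7 ± 26.1 in WT. FTSJ3 overlaps 19.5% of PSMC5, with 1748 ± 77.3 in KO and 1464 ± 15.8 in WT. In both pairs the partner differed in the direction opposite to the proteasome gene, and the part of the overlap in either value was not tested.

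The beta ring of the core rose in 7 of 8 genes, where 24.8% of all tested genes were called higher. PSMB7, which provides the trypsin-like site, had 3361, 3291 and 3238 normalized counts in KO and 2882, 2689 and 2826 in WT (log2 difference 0.24 ± 0.05, adjusted p = 0.000248). PSMB6, with the caspase-like site, had 2380, 2388 and 2332 in KO and 2068, 1948 and 2058 in WT (0.23 ± 0.05, adjusted p = 0.0018). PSMB5, with the chymotrypsin-like site that proteasome inhibitor drugs target, had 2817, 2793 and 2652 in KO and 2507, 2491 and 2581 in WT (0.12 ± 0.04, adjusted p = 0.0231). The groups did not overlap for any of the 3 catalytic genes, but KO replicate 3 of PSMB5 came close to WT replicate 3. The share of all tested genes without overlap was not computed. The PSMB5 call was lost on leaving out WT replicate 1 or 2 or KO replicate 1 or 2 (adjusted p 0.0661 to 0.0895). The structural beta genes PSMB1, PSMB2, PSMB3 and PSMB4 had log2 differences of 0.18, 0.29, 0.22 and 0.25.

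In the alpha ring, whose subunits gate the barrel, PSMA1, PSMA3, PSMA5 and PSMA7 rose, with log2 differences of 0.21, 0.21, 0.16 and 0.10. PSMA2, PSMA4 and PSMA6 did not pass the test, with adjusted p of 0.234, 0.0761 and 0.325. PSMA6, at 134.1 ± 11 in KO and 122.6 ± 5.2 in WT, and PSMA2, at 263.2 ± 34.9 in KO and 238.6 ± 11.1 in WT, overlapped between the groups. Each shares part of its exon length with a same-strand gene (14.1% and 14.6%). PSMA4 averaged 3724 ± 108 in KO and 3417 ± 71.1 in WT, and its groups did not overlap.

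**Figure D2:**
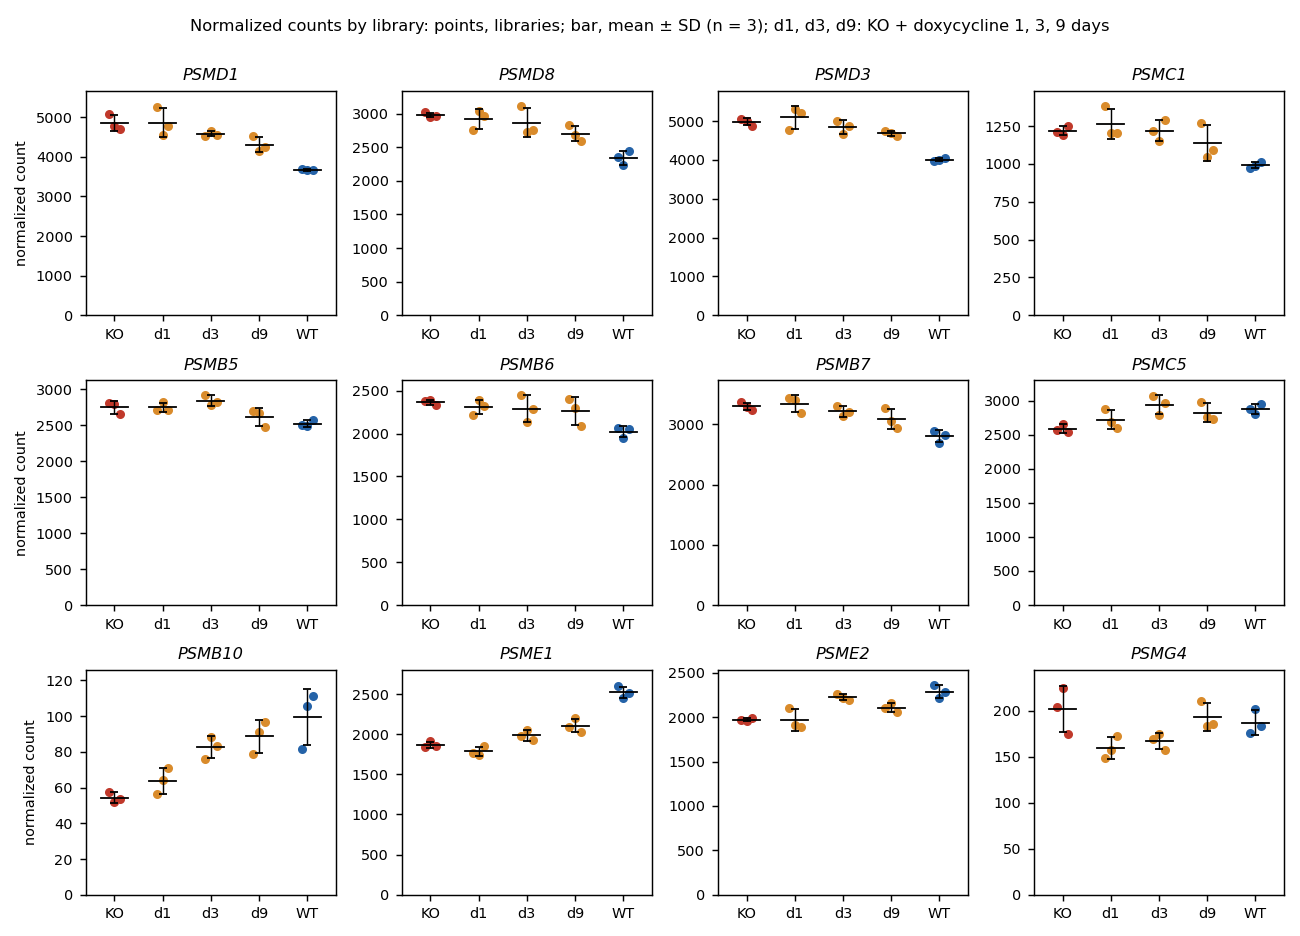
Normalized counts (y axis, from 0) of 12 proteasome genes in each library by group (x axis: KO, doxycycline days 1, 3 and 9, WT), with the mean ± SD of 3 libraries. PSMD1, PSMD8, PSMD3 and PSMC1 are higher in KO than in WT, PSMB10, PSME1, PSME2 and PSMC5 lower, and PSMB10 averages 54.4 in KO, 63.8, 82.7 and 88.8 at days 1, 3 and 9, and 99.7 in WT.

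PSMB10, the only inducible catalytic subunit among the members, fell in KO. Its normalized counts were 57.8, 51.8 and 53.7 in KO, 56.4, 64.1 and 70.8 at day 1, 76.2, 88.4 and 83.5 at day 3, 78.6, 91.2 and 96.5 at day 9, and 81.7, 105.9 and 111.4 in WT. The KO libraries were below all day 3, day 9 and WT libraries, day 1 overlapped KO, and days 3 and 9 overlapped each other and WT. Relative to WT the KO level was 0.55-fold (log2 difference -0.85 ± 0.14, adjusted p = 3.04e-05). With doxycycline it was higher than in KO at day 3 (0.59 ± 0.14, adjusted p = 0.00263) and day 9 (0.69 ± 0.14, adjusted p = 0.000698), while day 1 did not pass the test (0.22 ± 0.14, adjusted p = 0.354). Day 9 against WT gave -0.16 ± 0.14 (adjusted p = 0.461). On the same strand, AC040162.1 shares 34.8% of the exon length of PSMB10 and averaged 47.1 ± 4.7 in KO and 32.2 ± 3.8 in WT, so reads in the shared part cannot be assigned to 1 gene and the PSMB10 values are uncertain to that extent.

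PSME1 and PSME2 encode the subunits of the activator ring that opens the barrel in interferon-treated cells. PSME1 had 1835, 1913 and 1850 normalized counts in KO, 1765, 1742 and 1853 at day 1, 1973, 2054 and 1928 at day 3, 2095, 2198 and 2030 at day 9, and 2596, 2454 and 2508 in WT. No library of the KO line, with or without doxycycline, reached the lowest WT library. The log2 difference was -0.43 ± 0.04 for KO against WT (adjusted p = 8.47e-08), 0.18 ± 0.04 for day 9 against KO (adjusted p = 0.00594) and -0.26 ± 0.04 for day 9 against WT (adjusted p = 0.000239). PSME2 had 1972, 1953 and 1986 in KO, 2107, 1911 and 1889 at day 1, 2266, 2221 and 2197 at day 3, 2107, 2155 and 2053 at day 9, and 2361, 2221 and 2284 in WT. It fell in KO against WT (-0.22 ± 0.05, adjusted p = 0.000509) and rose at day 3 against KO (0.18 ± 0.05, adjusted p = 0.0057). At day 9 the difference from KO was 0.10 ± 0.05 (adjusted p = 0.136).

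The other 3 activator and inhibitor genes moved the opposite way in KO against WT. PSME3, the nuclear activator, rose by 0.14 ± 0.05 on the log2 scale, and PSME4, which encodes a single-chain activator, by 0.20 ± 0.05. PSMF1, an inhibitor of the core in vitro, had 2098, 2034 and 1965 normalized counts in KO and 1840, 1875 and 1815 in WT (log2 difference 0.14 ± 0.04, adjusted p = 0.0119). Its KO libraries all lay above WT. After 9 days of doxycycline its counts were 1818, 1801 and 1795, lower than in KO (-0.17 ± 0.04, adjusted p = 0.00629).

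Of the assembly chaperones with a PSM symbol, PSMD5, which holds ATPases of the cap base during assembly, fell in KO to 1604 ± 61.2 against 1771 ± 49.9 in WT (log2 difference -0.14 ± 0.05, adjusted p = 0.0175). The remaining 6 did not pass the test, with log2 differences of -0.21 (PSMD9) to 0.15 (PSMG3, adjusted p = 0.0531).

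Summed over the class, core genes took 0.256 ± 0.0044% of a library's normalized counts in KO, 0.261 ± 0.0068% at day 1, 0.258 ± 0.0056% at day 3, 0.256 ± 0.0060% at day 9 and 0.230 ± 0.0027% in WT (SD, n = 3). Cap genes took 0.332 ± 0.0058% in KO, 0.341 ± 0.0093% at day 1, 0.337 ± 0.0081% at day 3, 0.331 ± 0.0082% at day 9 and 0.295 ± 0.0028% in WT. Every library of the KO line, with or without doxycycline, was above every WT library for both sums, and the 4 groups of that line overlapped. Members with higher counts weigh more in these sums.

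**Figure D3:**
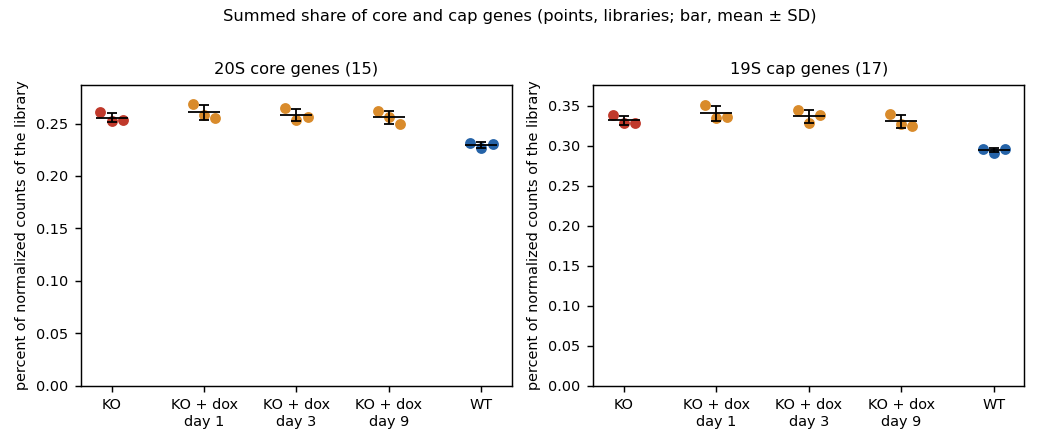
Share of each library's normalized counts (percent, y axis from 0) taken by the 15 core genes (left) and the 17 cap genes (right), by group, with the mean ± SD of 3 libraries. WT averages 0.230% and 0.295%, and all KO and doxycycline libraries lie above the WT libraries in both panels.

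After 1 day of doxycycline few of these genes differed from KO past the threshold. Only PSMG3 and PSMG4, chaperones of alpha ring and early core assembly, passed the threshold at day 1 against KO (2 of 44, against 10.9% of all genes, 4.94% higher and 5.97% lower), both lower, and no core or cap gene did. PSMG4 had 149.1, 157.2 and 172.5 normalized counts at day 1 and 204.3, 224.9 and 175.2 in KO (log2 difference -0.33 ± 0.10, adjusted p = 0.0403), with day 1 replicate 3 close to KO replicate 3. PSMG3 had 794.8, 918.2 and 894.2 at day 1 and 977.6, 1068 and 976.4 in KO (-0.21 ± 0.06, adjusted p = 0.0307). Both calls were lost when KO replicate 1, KO replicate 2 or day 1 replicate 1 was left out, PSMG4 also without day 1 replicate 2 and PSMG3 also without KO replicate 3, and with the 6 libraries alone no gene passed. The PSMG4 call was also lost without a filter on low values (adjusted p = 0.0559) and in the authors' deposited table (0.0847). Without day 1 replicate 1, the library that stood farthest apart, PSMD9 was higher than in KO (0.36 ± 0.10, adjusted p = 0.0186) and PSMG1, another assembly chaperone, lower (-0.24 ± 0.05, adjusted p = 0.0023). Neither passed with all libraries.

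At day 3 against KO, 6 of 44 genes passed (against 27.4% of all genes, 13.5% higher and 13.9% lower), of which 1 was a core and 1 a cap gene. PSMB10, PSMD9, PSMC5 and PSME2 rose, and PSMG3 and PSMF1 fell. PSMC5 had 3065, 2786 and 2971 normalized counts at day 3 and 2569, 2663 and 2540 in KO (0.18 ± 0.05, adjusted p = 0.00814). PSMD9, a chaperone of the cap base, had 241.5, 203.7 and 219.8 at day 3 and 167.4, 165.2 and 195.1 in KO (0.33 ± 0.11, adjusted p = 0.0307). Neither gene overlapped between these groups. PSMG3 fell by 0.23 on the log2 scale (adjusted p = 0.00985) and PSMF1 by 0.12 (adjusted p = 0.046). The PSMC5 call was lost without day 3 replicate 1, that of PSMD9 without KO replicate 1 or 2 or day 3 replicate 1 or 3, that of PSMG3 without KO replicate 2 or day 3 replicate 3, and that of PSMF1 without KO replicate 1 or 2 or day 3 replicate 1 or 2. With equal medians or without a filter the PSMF1 call was also lost (adjusted p 0.0783 and 0.0774), and in the authors' deposited table neither PSMF1 (0.0773) nor PSMD9 (0.0528) passed. Without KO replicate 2 or without day 3 replicate 1 the count was 3, and with only the 6 libraries compared it was 10.

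At day 9 against KO, 4 of 44 genes passed (against 25.9% of all genes, 12.4% higher and 13.4% lower): PSMB10 and PSME1 higher, PSMD1 and PSMF1 lower. The median log2 difference was -0.07 over core genes and -0.05 over cap genes. PSMD1 had 4516, 4151 and 4255 normalized counts at day 9 and 5081, 4764 and 4690 in KO (log2 difference -0.17 ± 0.05, adjusted p = 0.0131). All day 9 libraries of PSMD1 were below those of KO and above those of WT, and the call against KO was lost without KO replicate 1 (adjusted p = 0.0852) or day 9 replicate 2 (0.0709). Without day 9 replicate 1, 8 genes passed.

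Compared with WT, the day 9 cells had higher levels of many core and cap genes. Against WT, 20 of 44 genes passed at day 9, 19 higher and 1 lower (PSME1), where 10.4% of all genes were called higher and 11.4% lower (21.8% in all). The 19 comprised 7 core genes, 11 cap genes and PSME4, and no assembly chaperone with a PSM symbol was called. POMP, which has no such symbol, was higher (log2 difference 0.18 ± 0.06, adjusted p = 0.0459). PSMB2, a structural beta subunit, had 4330, 4249 and 4172 normalized counts at day 9 and 3553, 3573 and 3548 in WT (log2 difference 0.26 ± 0.05, adjusted p = 0.00045). PSMD13, a lid subunit, had 5126, 5022 and 4795 at day 9 and 4329, 4238 and 4180 in WT (0.23 ± 0.04, adjusted p = 0.000158). For each, the WT libraries were close together and lay below all day 9 libraries. PSMD1 and PSMD3 were also higher at day 9 than in WT, by 0.23 ± 0.05 and 0.23 ± 0.04 on the log2 scale. The count was 12 without WT replicate 2 and 13 without day 9 replicate 1.

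These values stand beside those of KO against WT, with which they share the WT libraries, and they cross the project codes. The core median was 0.14 at day 9 against WT and 0.18 in KO against WT, and the cap medians were 0.19 and 0.23. PSMB5 did not pass at day 9 against WT (0.05 ± 0.04, adjusted p = 0.465), whereas PSMB6 (0.16 ± 0.05, adjusted p = 0.0416) and PSMB7 (0.14 ± 0.05, adjusted p = 0.0321) did. Between day 9 and day 3, which share a project code, 1 of 44 genes passed (against 7.42% of all genes, 3.03% higher and 4.39% lower). That gene, the ATPase PSMC4, had 2024, 1842 and 1822 normalized counts at day 9 and 2289, 2052 and 2132 at day 3 (-0.19 ± 0.05, adjusted p = 0.0233), and its call was lost without day 3 replicate 1 or 3 or day 9 replicate 2 or 3.

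Genes whose products work on the proteasome without bearing a PSM symbol were taken from a list of 10. In KO against WT, 6 of them rose and none fell, with a median log2 difference of 0.18, where 24.8% of all genes were called higher and 24.8% lower. AKIRIN2, which mediates the import of proteasomes into the nucleus, had 561.0, 559.4 and 584.2 normalized counts in KO, 573.2, 513.7 and 490.5 at day 1, 457.3, 428.3 and 461.5 at day 3, 451.9, 394.6 and 458.8 at day 9, and 393.7, 396.6 and 390.9 in WT. KO libraries were above all day 3, day 9 and WT libraries. The log2 difference was 0.53 ± 0.07 for KO against WT (adjusted p = 2.4e-06), -0.34 ± 0.07 for day 3 against KO (adjusted p = 0.00099) and -0.39 ± 0.07 for day 9 against KO (adjusted p = 0.000264). UCHL5, a deubiquitinase docked on the cap, averaged 1365 ± 67.6 in KO and 1002 ± 37.8 in WT (log2 difference 0.45 ± 0.08). UBE3C, a ubiquitin ligase at the proteasome, and ECPAS, a protein that joins core and cap, rose by 0.23 and 0.13, the ECPAS call being lost without WT replicate 3 (adjusted p = 0.051). POMP, the core maturation factor, and USP14, the other cap deubiquitinase, rose by 0.19 and 0.18. ADRM1, the receptor that anchors UCHL5, was at 2020 ± 74.1 in KO and 1668 ± 141 in WT and did not pass (adjusted p = 0.153).

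**Figure D4:**
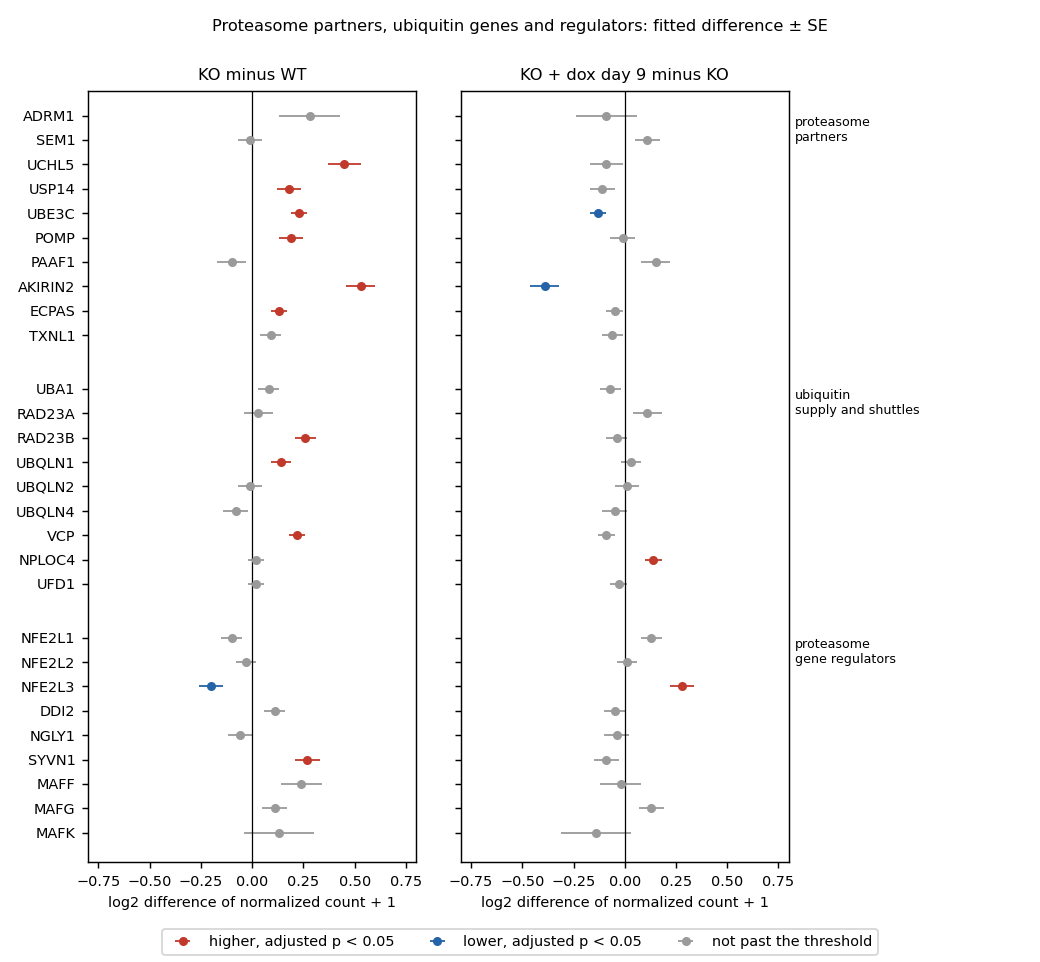
Fitted log2 difference of normalized count + 1 (x axis, bars 1 SE, 3 libraries a group) for 10 proteasome partners, 9 ubiquitin supply and shuttle genes and 9 regulators (y axis) in KO minus WT and day 9 minus KO. AKIRIN2 is at 0.53 in KO minus WT and at -0.39 in day 9 minus KO.

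Of 9 ubiquitin supply and shuttle genes, 3 (33.3%) rose in KO against WT and none fell, where 24.8% of all genes were called higher and 24.8% lower, and the median log2 difference was 0.03. RAD23B, a shuttle that carries ubiquitylated proteins to the cap, had 5460, 5205 and 5226 normalized counts in KO and 4461, 4428 and 4349 in WT (log2 difference 0.26 ± 0.05, adjusted p = 6.24e-05). VCP, the segregase that extracts ubiquitylated proteins from complexes, had 11276, 11252 and 10765 in KO and 9472, 9599 and 9586 in WT (0.22 ± 0.04, adjusted p = 6.96e-05). For both genes the KO libraries were all above those of WT. UBQLN1, another shuttle, rose by 0.14 ± 0.05 (adjusted p = 0.031), a call lost on leaving out WT replicate 2 or 3 or KO replicate 1 or 2 (adjusted p 0.0526 to 0.155), with equal medians and in the authors' deposited table. UBA1, the main ubiquitin-activating enzyme, was at 7140 ± 274 in KO and 6743 ± 111 in WT and did not pass (0.08 ± 0.05, adjusted p = 0.144), though it did with only the 6 libraries compared (0.0398).

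Among 9 regulators of proteasome genes, 1 rose and 1 fell in KO against WT, 22.2% of the list where 49.7% of all genes were called. SYVN1, an endoplasmic reticulum ubiquitin ligase, rose by 0.27 ± 0.06 (adjusted p = 0.000692), and NFE2L3 fell by 0.20 on the log2 scale (adjusted p = 0.0112), a call lost without WT replicate 1 or KO replicate 2. NFE2L3 was higher at day 9 than in KO (0.28 ± 0.06, adjusted p = 0.00229) and than at day 3 (0.38 ± 0.06, adjusted p = 0.000629). It did not pass at day 1 or day 3 against KO, or at day 9 against WT (0.08 ± 0.06, adjusted p = 0.438). DDI2, the protease that activates NFE2L1, averaged 1392 ± 18.6 in KO and 1292 ± 12.3 in WT (0.11 ± 0.05, adjusted p = 0.0572), and passed with a minimum of 50 (0.049) and with the 6 libraries alone (0.0222). MAFF, a small MAF protein, averaged 229 ± 10.2 in KO and 193.7 ± 10.4 in WT (0.24 ± 0.10, adjusted p = 0.0615), and passed with equal medians (0.0469), with the replicate block (0.038) and with the 6 libraries alone (0.0114). NFE2L1, the factor that drives proteasome genes when proteasome activity is low, had 2665, 2946 and 2909 normalized counts in KO, 3076, 3412 and 3456 at day 1, 3286, 3278 and 3145 at day 3, 3181, 3046 and 3120 at day 9, and 2877, 3124 and 3140 in WT. KO overlapped WT for this gene and lay below all doxycycline libraries. It did not pass in KO against WT (-0.10 ± 0.05, adjusted p = 0.106), but did, as lower in KO, with the 6 libraries alone (0.0493) and without WT replicate 1 (0.0446). It was higher at day 1 against KO (0.22 ± 0.05, adjusted p = 0.0073) and day 3 against KO (0.19 ± 0.05, adjusted p = 0.00841). Both of these calls were lost without KO replicate 1, and that at day 1 also with the 6 libraries alone (adjusted p = 0.0777). Day 9 against KO gave 0.13 ± 0.05 (adjusted p = 0.0582), which passed with the replicate block (0.0318) and with the 6 libraries alone (0.0238). NFE2L2, which drives antioxidant genes, passed in none of the 6 comparisons, with log2 differences of -0.07 to 0.08. These are transcript levels, and NFE2L1 and NFE2L2 proteins were not measured here.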

How the data were processed

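RNA-seq of 15 DLD1 libraries was taken from 1 deposited table. Alignment to hg19 used HISAT2 2.1.0, counting HTSeq and normalization DESeq2, per the submitters' processing notes. The annotation, the strand setting and the remaining versions are not stated there. The authors deposited normalized counts (a signal: each library's counts over its size factor). Their deposited log2 fold changes and adjusted p-values were used only as an alternative. Every value of a library was a whole multiple of 1 step (0.9899 to 1.0073, tolerance 1e-06). Steps this close to 1 were not taken as recovered reads, so no count test was run, although the planned design named it as an alternative.

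Symbols were matched by Ensembl ID (22463 of 22706 genes), and 1 gene with a text cell was dropped. log2(value + 1) of 15134 genes with at least 10 in at least 3 libraries was fitted with limma 3.58.1 (statmod 1.5.0, R 4.3.3), with 1 mean per group over all 15 libraries, trended robust eBayes, two-sided Benjamini-Hochberg adjusted p and a threshold of 0.05. The script was tested on simulated data. Members and gene lists were chosen with earlier results of these data known. Named were the catalytic genes and PSMB10, up to 4 members per direction and comparison with the largest called difference (mean of at least 50), the 4 lowest p per other list (some genes of the ubiquitin list are not reported here), NFE2L1, NFE2L2 and USP7. PSMD5, PSMD2, PSMD4, PSMD14 and others outside this rule were named after their values were seen, to account for their class. Exon overlaps come from GENCODE 29 on GRCh38, used for neighbours only.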

Additional observations from a re-analysis of the deposited data

How the results depend on the processing

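Counts of proteasome genes past the threshold were recomputed with other pseudocounts (0.5 and 5), filters, scaling to equal medians, the compared libraries alone, a replicate block, the authors' deposited table where it has the comparison, and each library left out. KO against WT (33) gave 28 to 37 (32 in the authors' deposited table). Day 1 against KO (2) gave 1 without a filter, 0 with the 6 libraries alone, 1 in the authors' deposited table, and 0 to 2 with 1 library left out. Day 3 against KO (6) gave 10 with the 6 libraries alone and 3 to 7 with 1 left out. Day 9 against KO (4) ranged from 3 to 8 and day 9 against WT (20) from 12 to 20 with 1 left out. Day 9 against day 3 (1) gave 2 with a minimum of 50, 2 with the 6 libraries alone, and 0 to 1 with 1 left out. The core median in KO against WT ranged from 0.165 to 0.219 with 1 left out. The cause was not tested.

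Over all tested genes, same-numbered replicates did not deviate together (correlations of deviations -0.03 to 0.19, paired in 0 of 6 comparisons), so the numbers were not used as pairs. For core genes, however, replicate 1 had the highest share of its group throughout: 0.2606% in KO, 0.2683% at day 1, 0.2644% at day 3, 0.262% at day 9 and 0.2314% in WT. Its cap share was also the highest in each group of the KO line, but not in WT. Pairing for the proteasome genes alone was not tested. With the replicate block, the counts were higher in every comparison. They were 37, 3, 7, 6, 26 and 3 for KO against WT, day 1, day 3 and day 9 against KO, day 9 against WT and day 9 against day 3.

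For single genes, 750 of 814 alternatives kept direction and call, 51 lost the call and 10 gained it. The 3 that changed sign had differences near 0: NFE2L2 at day 9 against KO without KO replicate 2 (-0.010) or day 9 replicate 1 (-0.014; range -0.014 to 0.023 with 1 left out), and NFE2L1 at day 9 against WT without WT replicate 1 (-0.008; range -0.008 to 0.055). The planned edgeR and DESeq2 fits were not run, since the deposited values were not used as reads. Low counts limit precision for PSMB10, PSMA6, PSMD9 and PSMG4, with SEs of 0.10 to 0.14.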
